A study of Mus musculus with 15 samples.

Results

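The genes described here are 10 genes of the primitive streak and of the mesoderm that forms from it: T (brachyury), Mixl1, Gsc, Mesp1, Evx1, Fgf8, Cer1, Lhx1, Tbx6 and Kdr. They were found by name in a table of 26061 genes, and all 10 were in it. Their RNA was measured in E14 cells, a mouse embryonic stem cell (ESC) line of 129/Ola background, in 15 libraries. The cells grew without feeders in medium with serum and LIF, the cytokine that holds ESCs undifferentiated. All 3 groups carried a lentiviral pLKO.1 short hairpin RNA (shRNA) and were kept for 3 days in puromycin. The hairpin was non-targeting in shScr, against Tet1 in shTet1 and against Tet2 in shTet2, with 5 libraries in each group. Each target had 1 hairpin, so that an effect of the hairpin and an effect of losing the TET enzyme cannot be told apart. The labels do not say whether the 5 libraries of a group came from separate cultures, and the p-values then measure the spread between these libraries only. Both targets were lowered. Normalised Tet1 reads lay between 13120 and 19408 in shScr libraries and between 3877 and 5418 under shTet1. Normalised Tet2 reads lay between 9077 and 11714 in shScr libraries and between 2192 and 3081 under shTet2. Tet1 was uneven under shTet2, from 9880.8 normalised reads in replicate 1 to 25148 in replicate 3, beyond the shScr range on both sides. Tet2 under shTet1 ranged from 6686.9 (replicate 2) to 9845.5 (replicate 3).

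The primitive streak is the site of the gastrulating embryo where epiblast cells leave the pluripotent layer and become mesoderm or definitive endoderm. NODAL, WNT and BMP signals switch on T-box and homeobox genes there. T marks the streak and Evx1 its posterior part. Gsc, Lhx1 and Cer1 mark its anterior part and the endoderm that leaves it, and Mixl1 marks both parts. Mesp1, Tbx6 and Kdr are then used by cardiac, paraxial and vascular mesoderm. TET1 and TET2 oxidise methylated cytosine in DNA, and the comparisons ask how RNA levels in undifferentiated ESCs respond to loss of either enzyme.

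In these ESCs 9 of the 10 genes gave few reads, with Kdr as the exception. Over all 15 libraries together, Kdr gave 1467 reads, Mixl1 148, Gsc 140, T 116, Tbx6 46, Evx1 36, Mesp1 25, Fgf8 21, Lhx1 19 and Cer1 7. The libraries held 15258291 to 35432425 gene reads each. A single read in a library is therefore all that separates detection from no detection for several of these genes. T and Kdr had reads in 15 of 15 libraries, Mixl1 and Gsc in 14, Evx1 in 11, Mesp1 and Tbx6 in 10, Fgf8 in 8, Lhx1 in 6 and Cer1 in 4. The 9 genes other than Kdr averaged under 10 reads per library.

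**Figure D1:**
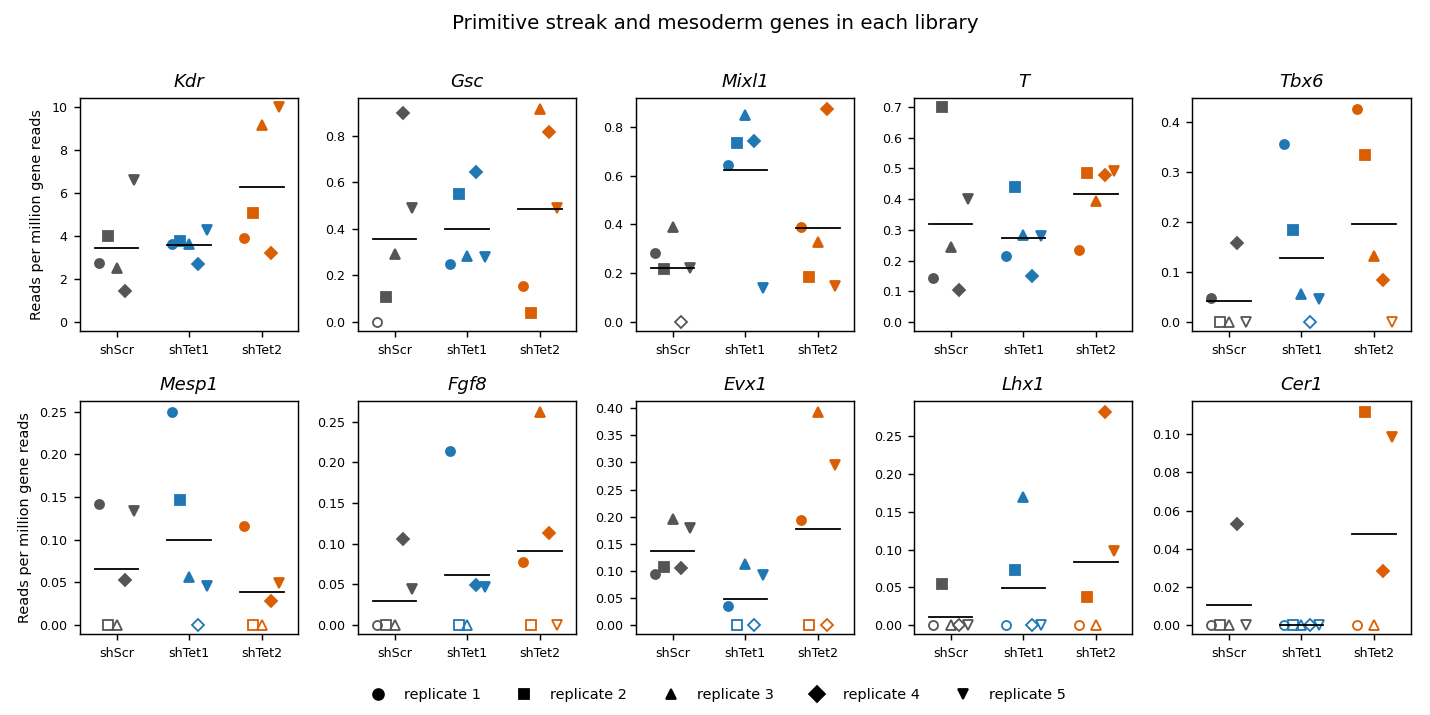
Reads per 1000000 gene reads (RPM) of each of the 10 genes (vertical axis, a separate linear scale in every panel) in the 15 libraries, by group (horizontal axis). Symbols stand for replicate numbers, open symbols for libraries with 0 reads and horizontal lines for group means; the 3 groups overlap in every panel, and Kdr alone reaches over 1 RPM.

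Levels can be compared between genes once divided by exon length. On the scale of reads per kilobase of exon per 1000000 gene reads (RPKM), with the 15 libraries pooled, Kdr stood at 0.593, Gsc at 0.326, Mixl1 at 0.190 and T at 0.148. Tbx6 followed at 0.0750, Mesp1 at 0.0577, Fgf8 at 0.0458, Evx1 at 0.0368, Lhx1 at 0.0136 and Cer1 at 0.0118. The ranges over single libraries overlapped between all neighbours in this order. All genes were read in the same libraries, and differences between neighbours were not tested. Kdr lay above 52.2% of all genes in the table by this level and Cer1 above 21.8%. The median of the 10 genes was 0.0664, below the 0.442 of all genes with an exon length.

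Genes of undifferentiated ESCs stood far higher. The 8 ESC genes of a list of pluripotency regulators ranged from 17.5 to 570 RPKM, led by Zfp42 (570) and Pou5f1 (349). Genes that signal to the streak or read those signals were present at a median of 4.97 over 18 genes. In contrast, 20 further genes of the posterior streak and mesoderm had a median of 0.132, and 11 of blood and endothelium 0.251. The 11 genes of the anterior streak and definitive endoderm had a median of 0.359. As a measure of background, 1448 olfactory and vomeronasal receptor genes, which act in sensory neurons, had a median of 0.00481 and a 95th percentile of 0.0317. Lhx1 and Cer1 lay under that 95th percentile, above 81.5% and 76.3% of the receptor genes. The other 8 genes lay above it, although Evx1 did so by little (above 96.4% of receptor genes).

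**Figure D2:**
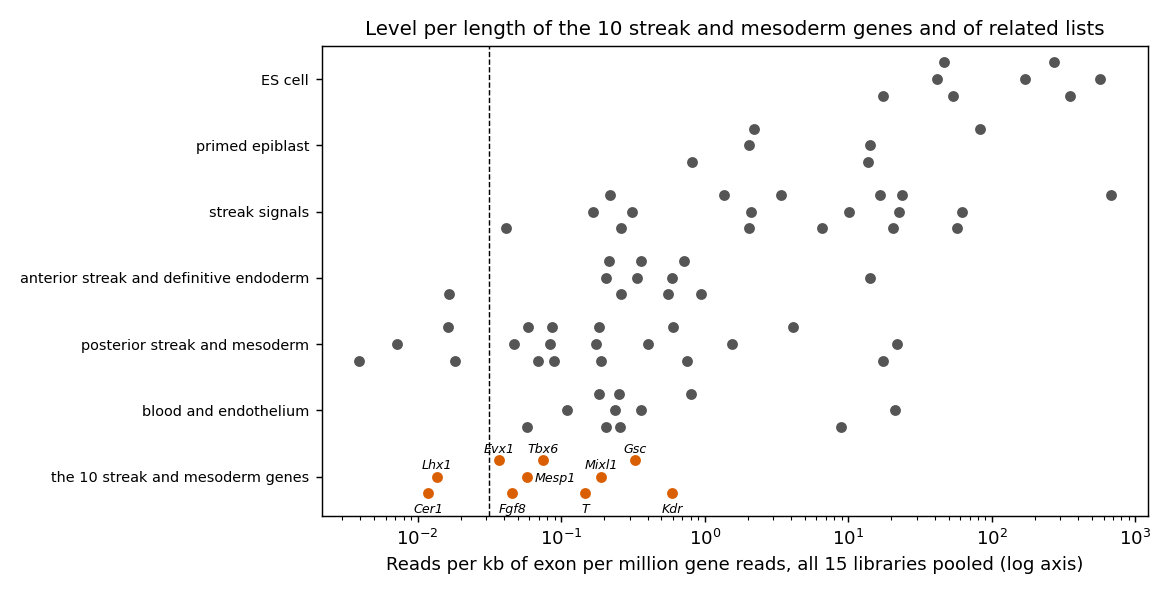
Level of each gene as RPKM with all 15 libraries pooled (horizontal log axis), for the 10 genes (orange, named) and for 6 related lists (grey); vertical offsets within a list only separate the points. The dashed line marks the 95th percentile of 1448 receptor genes (0.0317): Lhx1 and Cer1 lie left of it, and the ESC genes start at 17.5.

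Receptor reads were also uneven between libraries. They made up 54.5 to 64.7 reads per 1000000 gene reads (RPM) in 4 libraries (shScr replicate 4, shTet1 replicates 3 and 4, shTet2 replicate 4) and 11.1 to 26.5 in the other 11. In the 4 libraries Gsc gave 0.694 RPM against 0.307 in the other 11, Mixl1 0.661 against 0.351, and Lhx1 0.141 against 0.0242. Kdr (2.81 against 4.88), T (0.293 against 0.359), Evx1 (0.0434 against 0.129), Mesp1 (0.0325 against 0.0889) and Tbx6 (0.0759 against 0.158) were lower there. The part of what set these libraries apart in the values below was not tested, and differences are also given without these 4 receptor-rich libraries.

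The promoter sequences of the genes differ in how many CpG dinucleotides they hold, the pairs in which most methylated cytosines of mammals lie. Windows from 250 bases before to 50 bases after the start site were found in RefSeq (GRCm38.p6) for 8 of the 10 genes, not for Mixl1 and Fgf8. Lhx1 held 31 CpGs, more than in 89.4% of 32851 such windows, Gsc 25 (81.6%), Kdr 19 (71.9%) and T 17 (68.6%). Evx1 held 12, Tbx6 7, Cer1 6 and Mesp1 4, and the median window held 7. The 250 bases before the start site are printed 5′ to 3′ for Kdr, the gene with the most reads, and for Lhx1, the gene with the most CpGs, with each CpG in capitals (16 and 26 of them). They lie at chr5:75978456-75978705 and chr11:84525535-84525784 of GRCm38.p6, both on the minus strand.
Kdr: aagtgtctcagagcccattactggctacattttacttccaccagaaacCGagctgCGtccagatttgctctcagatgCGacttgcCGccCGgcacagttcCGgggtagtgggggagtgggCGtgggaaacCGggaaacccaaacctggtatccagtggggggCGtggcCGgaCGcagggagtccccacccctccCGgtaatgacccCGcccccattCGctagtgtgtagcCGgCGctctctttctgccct
Lhx1: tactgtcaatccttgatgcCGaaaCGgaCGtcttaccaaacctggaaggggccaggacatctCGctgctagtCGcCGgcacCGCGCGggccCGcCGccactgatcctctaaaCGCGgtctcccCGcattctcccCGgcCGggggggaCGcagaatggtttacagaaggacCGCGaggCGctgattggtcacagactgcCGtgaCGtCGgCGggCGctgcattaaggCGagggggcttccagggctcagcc

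Motifs of streak regulators were counted in the same windows, on both strands. A T-box motif (TCACACCT, or AGGTGTGA on the other strand) stood in 1.28% of all windows and in 1 of the 8, that of Mesp1, beginning 5 bases after the start site. A TCF/LEF motif (CTTTGAT or CTTTGAA, the letters read by effectors of WNT) stood in 8.65% of all windows and in those of T and Mesp1. FOXH1 (AATACACA or AATCCACA, 1.82% of all windows) and SMAD letters (GTCTAGAC or CAGACAGA, 2.74%) stood in 0 of the 8. The T-box and TCF/LEF letters do not overlap each other in these windows, and 0.14% of all windows held both. The 250 bases before the start of T (chr17:8434173-8434422, plus strand) and of Mesp1 (chr7:79793591-79793840, minus strand, GRCm38.p6) are shown because they hold the matches to the WNT effector motif, in capitals. A match is a run of letters and not a measured binding site.
T: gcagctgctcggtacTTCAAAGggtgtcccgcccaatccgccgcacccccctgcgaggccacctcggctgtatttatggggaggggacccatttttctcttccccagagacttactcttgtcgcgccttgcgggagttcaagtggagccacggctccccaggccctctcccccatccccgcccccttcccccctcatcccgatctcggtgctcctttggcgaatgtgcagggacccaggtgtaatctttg
Mesp1: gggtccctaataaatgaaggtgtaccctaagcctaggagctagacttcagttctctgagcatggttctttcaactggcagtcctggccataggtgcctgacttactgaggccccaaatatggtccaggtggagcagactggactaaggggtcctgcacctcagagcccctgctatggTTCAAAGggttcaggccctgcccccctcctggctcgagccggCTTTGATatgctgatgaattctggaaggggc

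To ask whether loss of TET1 or TET2 moved these genes, genes with reads in 5 or more of the 15 libraries were tested with limma on the deposited variance-stabilised values, a log2-like scale that is compressed at low reads. This left 19490 genes and 9 of the 10; Cer1 had too few libraries with reads. None of the 9 passed a Benjamini-Hochberg adjusted p of 0.05 in limma in any of the 3 comparisons. Among all tested genes, 14 (0.0718%) passed in shTet1 against shScr, 76 (0.390%) in shTet2 against shScr and 827 (4.24%) in shTet2 against shTet1, and a share of 0 among 9 genes lies near each of these. At an unadjusted p under 0.05 the counts were 1, 0 and 0 of the 9, beside 11.8%, 11.6% and 15.7% of all tested genes, and voom on the recovered reads also called 0 in each comparison. With the replicate number as a block, 935 of the 19490 genes passed in shTet1 against shScr, 840 in shTet2 against shScr and 2178 in shTet2 against shTet1. Of the 9, the block called 0 in each comparison. At an unadjusted limma p under 0.05 the block gave 2, 2 and 1 of the 9, and the share over all genes is not given for these. The median difference of the 9 was 0.11, 0.18 and 0.10 in the order above, against 0.013, 0.038 and 0.0145 over all tested genes. In each comparison 7 of the 9 had the higher mean in the group named first, and the share of all tested genes that did so is not given. Some of these differences were close to 0, such as 0.0024 for Gsc in shTet2 against shTet1, and turned sign under alternatives. The comparisons share libraries, and a gene passed the filter more easily where a group was high.

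**Figure D3:**
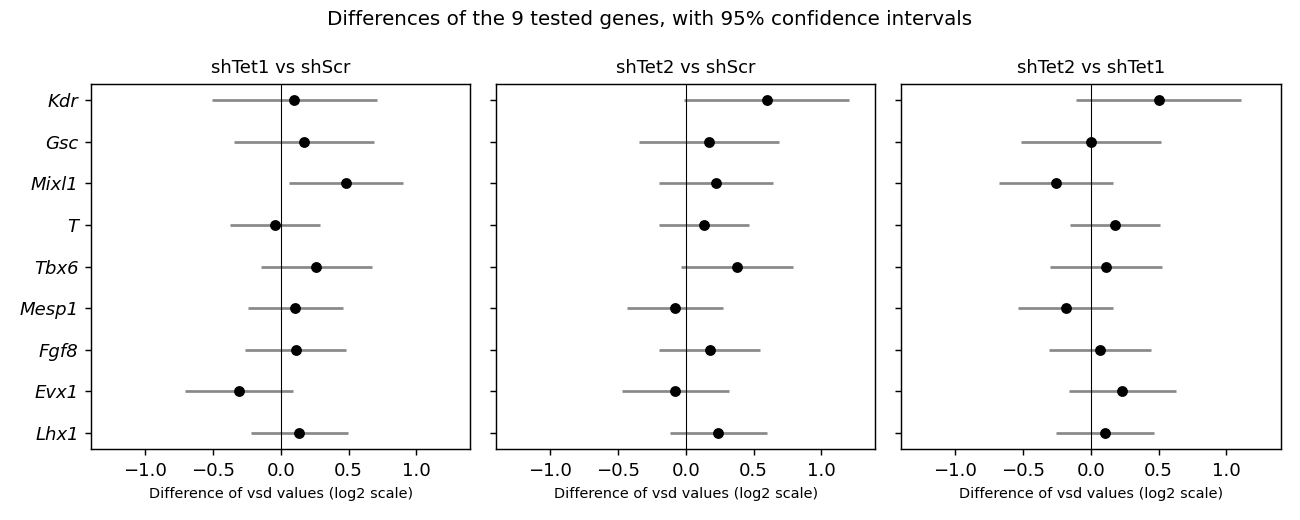
Difference of group means on the variance-stabilised log2 scale (horizontal axis) for the 9 tested genes (vertical axis) in the 3 comparisons, the group named first minus the second; dots are limma estimates and bars their 95% confidence intervals. Only Mixl1 in shTet1 against shScr (0.063 to 0.90) has an interval that leaves out 0, with an adjusted p of 0.340.

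Kdr encodes VEGFR2, the receptor by which endothelial and early blood progenitors sense VEGF, and its gene lies at chromosome 5, 76328852 to 76374483 (mm9, minus strand). Its normalised reads, which are reads divided by the scaling factor of the library, were 59.4, 92.8, 58.3, 30.0 and 152 in shScr replicates 1 to 5. They were 74.5, 78.8, 81.7, 56.0 and 104 under shTet1, and 79.9, 105, 207, 65.1 and 227 in shTet2. The shTet2 libraries 3 and 5 were the highest of all 15, and the other 3 lay within the range of shScr. The lowest library of all was shScr replicate 4, and the shTet1 libraries lay closest together.

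Over the 5 libraries of each group, Kdr averaged 78.5 ± 46.8 normalised reads (SD) in shScr, 79.0 ± 17.1 under shTet1 and 137 ± 74.96 under shTet2, 1.74-fold higher in shTet2 than in shScr. On the variance-stabilised scale these were 6.72 ± 0.60, 6.82 ± 0.23 and 7.32 ± 0.64. The difference between shTet2 and shScr was 0.60 (SE 0.29, 95% confidence interval −0.012 to 1.21, limma adjusted p = 0.442, exact permutation p = 0.167). Between shTet2 and shTet1 it was 0.50 (SE 0.29, −0.11 to 1.11, limma adjusted p = 0.452, exact permutation p = 0.167), with the shTet2 library higher in 5 of 5 pairs of the same number. The shTet2 library was also higher than the shScr library of the same number in 5 of 5 cases. Between shTet1 and shScr the difference was 0.10 (−0.51 to 0.71, limma adjusted p = 0.945). The groups overlapped in all 3 comparisons, and none of the differences passed the threshold, also with the replicate number as a block. The block gave a limma adjusted p of 0.0713 for shTet2 against shScr and of 0.0902 for shTet2 against shTet1. Taken within replicates 1 and 2 alone, shTet2 differed from shScr by 0.21, against 0.85 within replicates 3 to 5. The differences of shTet2 without the receptor-rich libraries were 0.58 from shScr and 0.58 from shTet1.

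Mixl1 encodes a homeobox factor of the streak that promotes mesoderm and endoderm, at chromosome 1, 182623174 to 182627165 (mm9, minus strand). It gave 6, 4, 8, 0 and 5 reads in shScr replicates 1 to 5. It gave 18, 20, 15, 15 and 3 under shTet1, and 10, 5, 5, 31 and 3 in shTet2. Replicates 1 to 4 of shTet1 lay above all 5 shScr libraries, and shTet1 replicate 5 lay among them. In shTet2, replicate 4 stood far above the other 4.

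Over the 5 libraries of each group, Mixl1 averaged 5.09 ± 3.30 normalised reads (SD) in shScr, 13.3 ± 5.95 under shTet1 and 8.04 ± 5.77 under shTet2. The mean of shTet1 was 2.62 times that of shScr. On the variance-stabilised scale the difference was 0.48 (SE 0.20, 95% confidence interval 0.063 to 0.90), with an unadjusted limma p of 0.0265, an adjusted p of 0.340 and a two-sided exact permutation p of 0.0476, of which 0.00794 is the smallest that 5 against 5 libraries allow. It did not pass the correction over all genes, and shTet1 was higher in 4 of 5 pairs of the same number. Without the receptor-rich libraries the difference was 0.19 (limma adjusted p = 0.752), and without shScr replicate 4 alone it was 0.32. The differences of shTet2 from shScr (0.22, limma adjusted p = 0.747) and from shTet1 (−0.26, limma adjusted p = 0.623) were smaller.

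T is the founding T-box factor, needed for posterior mesoderm and the notochord, at chromosome 17, 8627288 to 8635361 (mm9, plus strand). Its reads were 3, 13, 5, 2 and 9 in the shScr libraries, 6, 12, 5, 3 and 6 under shTet1 and 6, 13, 6, 17 and 10 under shTet2. Every library held some, with the lowest in shScr replicate 4 and the highest count in shTet2 replicate 4, the deepest library. Relative to depth, shScr replicate 2 was the highest. T differed by −0.041 between shTet1 and shScr (95% confidence interval −0.37 to 0.29), by 0.13 between shTet2 and shScr (−0.20 to 0.47) and by 0.18 between shTet2 and shTet1 (−0.16 to 0.51), and the limma adjusted p was at least 0.697. These were −0.0699, 0.0376 and 0.11 when the receptor-rich libraries were left out. Evx1, a homeobox gene that acts with T in the posterior streak, lies at chromosome 6, 52263492 to 52268372 (mm9), and 2.54% of its exonic bases overlap 5730457N03Rik on the opposite strand. The sources do not state whether strand was used to count, and reads in that stretch are uncertain.

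Evx1 gave 2, 2, 4, 2 and 4 reads in the shScr libraries, 1, 0, 2, 0 and 2 under shTet1 and 5, 0, 6, 0 and 6 under shTet2. All 5 shScr libraries held reads, which 3 of 5 did in each knockdown. The group totals were 14, 5 and 17 reads, or 0.138 (95% Poisson interval 0.0754 to 0.231), 0.0436 (0.0142 to 0.102) and 0.137 (0.0801 to 0.220) RPM; these intervals cover counting error only. The difference of −0.31 between shTet1 and shScr had a 95% confidence interval of −0.71 to 0.087, a limma adjusted p of 0.569 and an exact permutation p of 0.0714, with shTet1 lower in 5 of 5 pairs of the same number. It was −0.33 without the receptor-rich libraries.

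Among the genes of the anterior streak, Gsc encodes the homeobox factor goosecoid of the organizer (chromosome 12, 105709419 to 105711537, mm9). Its reads were 0, 2, 6, 17 and 11 in the shScr libraries, 7, 15, 5, 13 and 6 under shTet1 and 4, 1, 14, 29 and 10 under shTet2. In shScr and shTet2 the lowest libraries were replicates 1 and 2, and the shTet1 libraries lay within the range of the other groups, with less spread. The differences were 0.17 in shTet1 and 0.17 in shTet2 against shScr, and 0.0024 between shTet2 and shTet1, with 95% confidence intervals of −0.35 to 0.68, −0.34 to 0.69 and −0.51 to 0.52. The difference of shTet1 from shScr was 0.66 within replicates 1 and 2 and −0.16 within replicates 3 to 5, and that of shTet2 from shTet1 was −0.48 and 0.32. Without the receptor-rich libraries, Gsc differed from shScr by 0.28 in shTet1 and by 0.23 in shTet2.

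Lhx1 encodes a LIM homeobox factor of the anterior mesendoderm (chromosome 11, 84331479 to 84338923, mm9), and Cer1 a secreted inhibitor of NODAL, WNT and BMP (chromosome 4, 82527655 to 82531052, mm9). Lhx1 gave 1 read in shScr, in replicate 2, and 5 and 13 reads in shTet1 and shTet2, of which 10 came from shTet2 replicate 4. Its differences from shScr were 0.14 in shTet1 and 0.24 in shTet2 (limma adjusted p = 0.830 and 0.660), and 0.044 and 0.10 without the receptor-rich libraries. Cer1 gave 1 read in shScr (replicate 4), 0 in shTet1 and 6 in shTet2 (3 in replicate 2, 1 in replicate 4 and 2 in replicate 5). A count of 0 among the 114696827 gene reads of shTet1 allows up to 0.0262 RPM by the limit of 3 reads, and 0.0322 RPM by the upper bound of a 95% Poisson interval. Pooled over libraries, Cer1 was at 0.00985 RPM in shScr (95% Poisson interval 0.000249 to 0.0549) and at 0.0485 in shTet2 (0.0178 to 0.106), a difference that was not detectable at this depth. For Lhx1 the same intervals were 0.000249 to 0.0549 and 0.0560 to 0.180, but without shTet2 replicate 4 its reads in shTet2 were 0, 1, 0 and 2.

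Fgf8, the FGF ligand that lets mesoderm cells migrate out of the streak (chromosome 19, 45811288 to 45817405, mm9), gave 3, 8 and 10 reads in shScr, shTet1 and shTet2. Of the 8 in shTet1, 6 came from replicate 1, and its differences from shScr were 0.11 and 0.18 (limma adjusted p = 0.880 and 0.784). Mesp1, the basic helix-loop-helix factor of the earliest cardiac mesoderm (chromosome 7, 86937127 to 86938674, mm9), gave 7, 13 and 5 reads. Its highest library was shTet1 replicate 1, with 7 reads, and its differences from shScr were 0.11 and −0.079 (limma adjusted p = 0.874 and 0.917). Without the receptor-rich libraries, shTet1 differed from shScr by 0.26 for Fgf8 and by 0.27 for Mesp1.

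Tbx6, the T-box factor of paraxial mesoderm (chromosome 7, 133924997 to 133929074, mm9), gave 1, 0, 0, 3 and 0 reads in shScr. It gave 10, 5, 1, 0 and 1 under shTet1, and 11, 9, 2, 3 and 0 in shTet2. In both knockdowns the reads lay mostly in replicates 1 and 2, whereas the shScr libraries of those numbers held 1 and 0. Pooled over libraries, Tbx6 was at 0.0394 RPM in shScr (95% Poisson interval 0.0107 to 0.101), 0.148 in shTet1 (0.0863 to 0.237) and 0.202 in shTet2 (0.131 to 0.298). Over libraries, the difference was 0.26 in shTet1 (95% confidence interval −0.15 to 0.68, limma adjusted p = 0.666) and 0.38 in shTet2 (−0.036 to 0.79, limma adjusted p = 0.488, exact permutation p = 0.135), each within the spread between libraries. They were 0.54 and 0.51 when the receptor-rich libraries were left out.

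The 9 genes of low reads together gave 0.712 to 1.48 RPM in the shScr libraries, 0.929 to 2.13 under shTet1 and 1.19 to 2.71 under shTet2, and the 3 groups overlapped. Markers of visceral and primitive endoderm, cells that ESC cultures can hold and in which Cer1, Lhx1 and Gsc are also known, are set beside them. The 12 markers summed to 729 to 2351 normalised reads in shScr, 590 to 1184 in shTet1 and 382 to 809 in shTet2, and the level of each of the 12 was at most 1.83 RPKM. Cubn and Dab2 weigh most in these sums, with means of 511 and 174 normalised reads over all libraries. Foxa2, Sox17 and Gata6 also belong to the list of the anterior streak and definitive endoderm. Fewer cells of a type and less RNA per cell cannot be told apart in these bulk libraries, and the part of such cells in the low reads was not tested.

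The genes did not vary together from library to library in any clear way. Correlations of their deviations from the group means over the 15 libraries, given as a description with library depth and processing shared by the points, were 0.61 for Kdr and Evx1, 0.59 for Kdr and T and 0.54 for T and Lhx1, and −0.51 for Fgf8 and Lhx1. Those of Kdr with Mixl1 (−0.08) and Gsc (0.07) were near 0. For the 3 genes with the most reads, the tested genes of most similar pattern by the same measure were Ddah1 (0.96), Cyc1 (0.93) and Mcc (0.93) for Kdr. They were Mfng (0.80), Gm12503 (0.79) and Chrna2 (0.78) for Mixl1, and Stx4a (0.89), Glt28d2 (0.88) and Sgpl1 (0.87) for Gsc. Of all tested genes, 11.5% correlated above 0.5 with Kdr, 12.4% with Gsc and 1.7% with Mixl1.

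Other genes of the same pathway were read from the same fit. In shTet1 against shScr and in shTet2 against shScr, 0 genes of the 9 lists examined beside the 10 genes passed the threshold in limma. At an unadjusted p under 0.05 these counts reached at most 3 in a list in shTet1 (11.8% of all tested genes) and at most 6 in shTet2 (11.6%), for the 12 visceral and primitive endoderm genes, of which 10 had a lower mean in shTet2. Of the 8 ESC genes, 7 had a lower mean in shTet2 than in shScr (median difference −0.27, against 0.0376 over all tested genes). In shTet2 against shTet1, where 4.24% of all tested genes passed, 1 of 18 streak signals was lower, 1 of 11 anterior genes was higher and 1 lower, 1 of 19 posterior streak and mesoderm genes was higher, and 1 of 11 blood and endothelium genes was higher. Of the remaining lists, 1 of 8 trophoblast and 1 of 6 primed epiblast genes were higher, the last being Otx2, which the anterior list also holds. Beside the share over all genes, single calls in lists this small are not a result about the lists. The counts were 0 of 8 ESC, 0 of 12 visceral and primitive endoderm and 0 of 9 neural genes in limma, and 1, 5 and 1 at an unadjusted p under 0.05. All 8 ESC genes had a lower mean in shTet2 than in shTet1 (median difference −0.26, against 0.0145 over all tested genes). Their summed normalised reads were 65645 to 78944 in shTet2, 88038 to 91479 in shTet1 and 77798 to 90866 in shScr. Zfp42, Pou5f1 and Sox2 weigh most in these sums, with means of 22290, 17480 and 14230 normalised reads over all libraries.

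Eomes, the T-box factor upstream of Mesp1 and of definitive endoderm, was the lower gene of the anterior list. Its normalised reads were 58.4, 100.4, 72.0, 28.8 and 67.8 in the shScr libraries, 176, 141, 129, 97.5 and 126 under shTet1 and 45.1, 46.9, 103.5, 36.5 and 51.4 under shTet2. The shTet1 libraries were high, with shScr replicate 2 and shTet2 replicate 3 reaching above the lowest of them. Eomes was lower in shTet2 than in shTet1, with a difference of −0.94 (SE 0.22, limma adjusted p = 0.0185), and its difference between shTet1 and shScr was 0.80 (SE 0.22, limma adjusted p = 0.133, exact permutation p = 0.0159). Mesp1, for which Eomes is an activator in the embryo, differed by −0.19 between shTet2 and shTet1 (95% confidence interval −0.54 to 0.17).

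Fgf4, the FGF made by ESCs themselves, was also lower in shTet2 than in shTet1, with a difference of −0.59 (SE 0.13, limma adjusted p = 0.0126) and no overlap of the groups. Otx2, a homeobox gene of the primed epiblast and anterior endoderm, was higher by 1.01 (SE 0.24, limma adjusted p = 0.0192), and Dll1, the Notch ligand of paraxial mesoderm, by 0.80 (SE 0.22, limma adjusted p = 0.0442). Tek, which encodes the angiopoietin receptor TIE2 of endothelium, was higher by 1.07 (SE 0.19, limma adjusted p = 0.00298), and its difference from shScr was 0.83 (limma adjusted p = 0.0740). Kdr, the other endothelial receptor named here, had the smaller difference of 0.50 given above. Ascl2, a trophoblast factor, was higher by 0.88 (SE 0.23, limma adjusted p = 0.0312). Fgf4 differed from shScr by 0.37 in shTet1 and by −0.22 in shTet2, and Ascl2 by −0.56 and 0.32. For Otx2 these differences were −0.29 and 0.72, and for Dll1 −0.27 and 0.52. None of them passed the limma threshold. In shTet2 against shTet1 without the receptor-rich libraries, Fgf4 stayed past the threshold and Eomes, Otx2, Dll1, Tek and Ascl2 did not. The differences of those that did not were of similar size (−0.97, 0.97, 0.75, 1.00 and 0.89). Leaving out single libraries also moved genes across the limma threshold, with differences of −1.10 to −0.85 for Eomes, 0.87 to 1.15 for Otx2, 0.68 to 0.96 for Dll1 and 0.68 to 1.03 for Ascl2. The adjusted p of Eomes was 0.0518 to 0.0562 without shTet1 replicate 1 or shTet2 replicate 1, 2 or 4, and that of Otx2 was 0.0571 or 0.0617 without shTet2 replicate 1 or 2. That of Dll1 passed 0.05, reaching 0.127, without shScr replicate 3, any of shTet1 replicates 2 to 5 or any of shTet2 replicates 1 to 4. That of Ascl2 did so, reaching 0.0937, without any of shTet1 replicates 2 to 5 or shTet2 replicates 1 to 3.

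**Figure D4:**
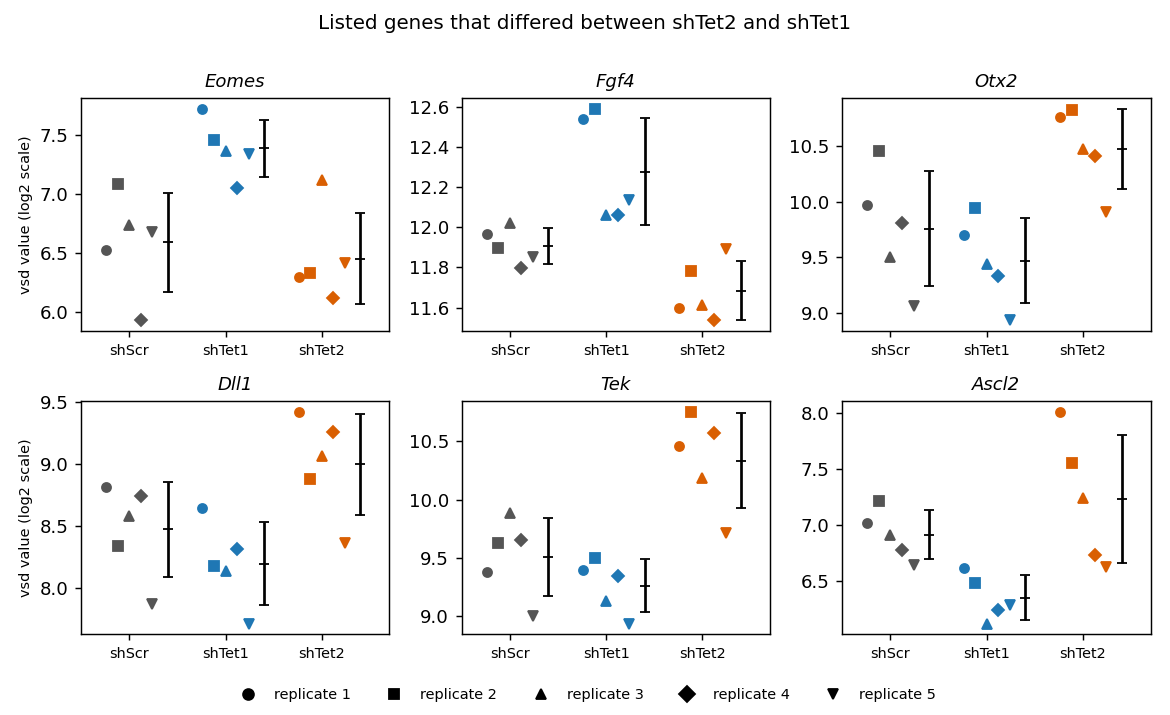
Variance-stabilised values (vertical axis, log2 scale, not starting at 0) of the 6 listed genes that passed the limma threshold between shTet2 and shTet1, in each library by group; symbols stand for replicate numbers, and black bars give the group mean ± SD (n = 5). Fgf4, Tek and Ascl2 do not overlap between shTet1 and shTet2, and Eomes is the only one of the 6 besides Fgf4 that is higher in shTet1.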

How the data were processed

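RNA of 15 libraries was sequenced after rRNA depletion with a directional kit. Per the labels, the authors trimmed reads with Trim Galore 0.3.3 and aligned them to mm9 with TopHat2 2.0.9. They counted reads per gene in Seqmonk and transformed the counts with DESeq2. The deposited gene values are on a variance-stabilised log2 scale whose minimum of 4.25 stands for 0 reads. Its inverse returned whole read numbers (within 0.05) for 100% of values. A deposited table of repeats was not used here.

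Group differences were computed in R 4.3.3 by limma 3.58.1 (lmFit and trended eBayes) in 1 fit of 3 groups, two-sided, with Benjamini-Hochberg adjustment over 19490 genes and a threshold of 0.05. Exact permutation tests used scipy 1.17.1. Scripts were tested on simulated data, with known changes only in genes of higher reads. Whether a change in genes of few reads would be called was not tested. The 10 genes and the lists were chosen with earlier results of these data known, and all 10 are named. Of each list, genes past the threshold are named, or otherwise at most the 2 highest. Gene positions are from GENCODE vM1 (mm9) and promoters from RefSeq (GRCm38.p6). Alternatives changed the filter, trend, scaling, weights, block, the count model (voom) and the libraries used. Leaving out the 4 libraries rich in receptor reads, and a term for replicates 1 and 2 against 3 to 5, were chosen after seeing the data. Same-numbered libraries deviated together from their group means (r 0.374 to 0.657 for shTet1 with shScr, 0.330 to 0.731 for shTet2 with shTet1). The correlation was not computed for libraries of different numbers. The main limma fit and the permutation tests took no account of the numbers. These were used only for the counts of pairs and for the block among the alternatives. No pair of replicates was a copy (chi-square per degree of freedom of at least 21.2 over 30 pairs).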

Additional observations from a re-analysis of the deposited data

Results flagged for a closer look

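Among 27 groups of 5 values examined (9 genes in 3 groups, without Cer1), 3 held a library whose gap to its nearest neighbour was above 0.71 of the range of the group. That limit flags about 1 group in 20 for normally distributed values. Counts this low, with a floor at 0 reads, are not such values, so that the expected number of flags is not known. A group with reads in 1 library only is always flagged. Mixl1 was at the table minimum of 4.25 (0 reads) in shScr replicate 4, a library rich in receptor reads, with the nearest library at 4.98. Mixl1 was at 4.85 (3 reads) in shTet1 replicate 5, with the nearest at 5.41. Lhx1 was at 4.62 in shScr replicate 2, which rests on 1 read, with the other 4 libraries at the minimum. The cause of these gaps was not tested.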

How the results depend on the processing

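Over 26 alternatives and 3 comparisons, 0 of 699 tests of the 10 genes passed the threshold, and the lowest limma adjusted p was 0.0713, for Kdr in shTet2 against shScr with the replicate block (0.60, 95% confidence interval 0.21 to 0.98). Deviations of the same-numbered libraries of shTet2 and shScr correlated by 0.400 to 0.769 in 4 of 5 cases but by 0.0079 for replicate 3. Same-numbered libraries of these groups are therefore not called pairs, and the block is given only as an alternative. For Kdr in shTet2 against shTet1 the block gave an adjusted p of 0.0902, and for Mixl1 the lowest was 0.133, without shTet1 replicate 5. Reads of under 10 per library limit the other 9 genes.

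Counts over all genes moved far more, and the cause was not tested. For shTet1 against shScr (14) they were 3 with the 2 groups only, 22 with quantile normalisation, 56 with array weights, 935 with the replicate block, 1 without the 4 libraries rich in receptor reads, 264 with the term for replicates 1 and 2, and 1 to 171 without single libraries (1 without shScr replicate 2 or shTet1 replicate 1, 2 or 4, and 171 without shTet1 replicate 5). For shTet2 against shScr (76) they were 39 with median centring, 45 with quantile normalisation, 283 with array weights, 840 with the block, 13 without the 4 libraries, 266 with the term, and 10 to 99 without single libraries (40 or fewer without any of shScr replicates 1, 2, 3 and 5, shTet1 replicate 3 and shTet2 replicates 1, 2 and 4). For shTet2 against shTet1 (827) they were 1246 with array weights, 2178 with the block, 345 without the 4 libraries, 1263 with the term, and 512 to 902 without single libraries (544 or fewer without shTet1 replicate 1 or 2 or shTet2 replicate 2). Median centring moved every difference by −0.0515, −0.107 and −0.0559 in the order of the report.

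None of the differences whose sign turned was called. Without the 4 libraries these were Mixl1 (−0.055) and Evx1 (0.027) in shTet2 against shScr, Gsc (−0.044), Fgf8 (−0.043) and Tbx6 (−0.029) in shTet2 against shTet1, and Kdr in shTet1 against shScr (−0.0016). Gsc in shTet2 against shTet1 was −0.0535 with median centring, −0.12 with quantile normalisation, −0.18 with array weights and −0.28 with voom. Quantile normalisation also turned Fgf8 (−0.015) and Tbx6 (−0.024) there, and array weights Gsc in shTet2 against shScr (−0.0057) and Kdr in shTet1 against shScr (−0.016). Without single libraries, the ranges that crossed 0 were −0.12 to 0.076 (T), −0.023 to 0.32 (Gsc) and −0.093 to 0.31 (Kdr) in shTet1 against shScr, −0.021 to 0.33 (Gsc) and −0.20 to 0.047 (Evx1) in shTet2 against shScr, and −0.12 to 0.17 (Gsc), −0.0465 to 0.17 (Fgf8) and −0.0145 to 0.21 (Lhx1) in shTet2 against shTet1. Within replicates 1 and 2, Lhx1 in shTet2 against shScr was −0.040, T −0.065, and in shTet2 against shTet1 Fgf8 was −0.14 and Lhx1 −0.059; within replicates 3 to 5, Mesp1 (−0.067) and Fgf8 (−0.046) turned in shTet1 against shScr. Of the 6 other genes called, Ascl2 lost its call with no filter (limma adjusted p = 0.0668), the 2 groups only (0.0593), quantile normalisation (0.0743) and voom (0.0553), Dll1 with no filter (0.0981) and voom (0.0709), and Otx2 with no filter (0.0633). Dll1 also lost its call in 9 of the 15 fits that left out a library, Ascl2 in 7, Eomes in 4, Otx2 in 2, and Fgf4 and Tek in 0.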
